A study of Homo sapiens with 24 samples.

Results

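The 10 measured regulators of the BCL2 family, chosen by gene symbol, were followed through both RNA-seq experiments of the series. They are the anti-apoptotic BCL2, BCL2L1 (BCL-XL) and MCL1, the BH3-only BBC3 (PUMA), PMAIP1 (NOXA), BCL2L11 (BIM), BMF and BIK, and the effectors BAX and BAK1. All 10 were found by symbol among the 22227 genes of the ligand tables and the 23028 genes of the siRNA tables, and all 10 passed the filters on low values. Poly(A) RNA came from LNCaP, a line of human prostate cancer cells that respond to androgen. In the ligand experiment, cells kept for 3 days in phenol red-free, charcoal-stripped medium received vehicle, 10 µM enzalutamide (an antiandrogen) or 10 nM DHT (dihydrotestosterone, an androgen) for 4 h or 24 h, with 2 libraries per condition. No time was given for the vehicle, which served as the control of all 4 ligand conditions. The labels number 4 vehicle samples, while the column headers mark 3 of the 4 vehicle columns as replicate 1, and these 3 were summed to 1 library. In the siRNA experiment, cells transfected with siControl or with an siGATA2 pool were treated from 72 h after transfection, for 24 h, either with vehicle or with enzalutamide at 25 µM, with 3 libraries per condition. All groups shared 1 cell line. The labels call the ligand libraries biological replicates and do not say what the siRNA replicates are, and the sources used here do not name separate cultures, so the p values measure the spread between these libraries, which may in part be technical.

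Commitment to apoptosis is set at the outer mitochondrial membrane. The effectors BAX and BAK1 form pores there and release cytochrome c, the anti-apoptotic members hold effectors and BH3-only proteins in check, and BH3-only proteins either occupy the anti-apoptotic members or engage the effectors. Several BH3-only genes are controlled at the level of transcription: BBC3 and PMAIP1 are known targets of p53, and PMAIP1 is also induced in the integrated stress response, while NOXA protein binds MCL1 with preference.

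The libraries held 38894800 to 59985200 estimated counts in the ligand experiment, and the step between small RPKM values placed the siRNA libraries at roughly 58800000 to 76800000 mapped reads. Member counts in the ligand experiment ran from 157 (BBC3) to 26396 (MCL1) per library. All 9 luminal prostate markers were expressed in both experiments, their summed level lay between 747 and 1566 RPKM in the siRNA libraries, and the basal markers KRT5, KRT14 and TP63 were below 1 in all conditions, as were the leukocyte markers PTPRC and CD3E. The remaining leukocyte marker, CD68, averaged at least 1 in both experiments. So did 2 of 4 stromal markers, which summed to 22.9 to 41.3 CPM in the ligand libraries. Of 3 neuroendocrine markers, 2 did in the ligand experiment (sum 41.4 to 62.7 CPM) and 1 in the siRNA experiment. KLK3, an androgen-induced gene, lay at 253.5 and 259.5 CPM in vehicle, 108.5 and 111.4 after 24 h of enzalutamide and 2095 and 2139 after 24 h of DHT. GATA2 lay between 77.0 and 86.1 RPKM in siControl vehicle cells and between 46.6 and 54.3 in siGATA2 vehicle cells, without overlap. Under enzalutamide it lay between 127.8 and 131.5 RPKM in siControl cells and between 60.1 and 64.7 in siGATA2 cells.

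PMAIP1 rose with enzalutamide in both experiments, and with DHT as well. BBC3 rose with enzalutamide in siControl cells and, less firmly, at 24 h in the ligand experiment. BMF fell with DHT. RefSeq promoters of these genes are shown first (GRCh38.p14). Of the 10 members, 8 had an entry, in 10 promoters, and MCL1 and BIK had none. The bases are those upstream of the annotated start that lie outside GENCODE exons of the gene, on the sense strand and 5′ to 3′. Capitals mark matches, on either strand, to a GATA hexamer (GATA with A or T before it and A or G after it), to the core ACGTCA of a cyclic AMP response element, or to the E-box CACGTG. These letters were chosen with the sequences in view. The first BMF promoter held none of these matches and is not shown. The PMAIP1 promoter spans chr18:59899746-59899947 on the plus strand, the BBC3 promoter chr19:47232767-47232917 on the minus strand and the second of 2 BMF promoters chr15:40106967-40107216 on the minus strand.
PMAIP1: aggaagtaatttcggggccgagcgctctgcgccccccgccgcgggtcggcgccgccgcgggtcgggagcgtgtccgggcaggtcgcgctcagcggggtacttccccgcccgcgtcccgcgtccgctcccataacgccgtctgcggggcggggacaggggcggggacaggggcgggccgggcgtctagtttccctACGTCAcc
BBC3: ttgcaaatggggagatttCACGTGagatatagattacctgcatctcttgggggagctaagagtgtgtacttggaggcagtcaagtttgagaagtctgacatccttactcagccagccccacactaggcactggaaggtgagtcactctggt
BMF, second start: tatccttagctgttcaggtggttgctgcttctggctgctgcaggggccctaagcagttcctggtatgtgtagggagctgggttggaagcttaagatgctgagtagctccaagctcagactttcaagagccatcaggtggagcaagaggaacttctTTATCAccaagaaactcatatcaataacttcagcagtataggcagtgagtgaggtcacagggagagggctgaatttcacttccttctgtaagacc
Over the whole 250 bases upstream, PMAIP1 held 1 ACGTCA beginning 56 bases before the start, a core present in 7.1% of 35116 promoters of the table. BBC3 held 1 E-box and BAX 4, against 6.34% of promoters with any. A GATA hexamer occurred in 1 of the 10 member promoters, the second of BMF, and in 22.3% of all promoters. These matches are a description of the letters in these windows and say nothing about occupancy.

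The ligand experiment asked how the antiandrogen and the androgen changed transcription. Values are counts scaled to library size with TMM factors (CPM), fold changes come from edgeR with 95% intervals, and a gene was called at a Benjamini-Hochberg adjusted p below 0.05 over the 15555 genes tested. PMAIP1, which encodes a BH3-only protein that binds MCL1 (chr18:59899948-59904306 in GRCh38, plus strand), was the member with the clearest response to enzalutamide. Its level was 11.6 and 10.6 CPM in vehicle, 19.9 and 21.2 after 4 h of enzalutamide and 17.1 and 18.2 after 24 h. It was 18.7 and 19.3 CPM after 4 h of DHT and 14.4 and 13.6 after 24 h. All 8 treated libraries lay above both vehicle libraries. PMAIP1 rose by 0.88 on the log2 scale at 4 h of enzalutamide (95% interval 0.73 to 1.03, adjusted p = 5.04e-06) and by 0.66 at 24 h (0.50 to 0.81, adjusted p = 1.05e-05). With DHT it rose by 0.77 at 4 h (0.62 to 0.91, adjusted p = 6.89e-06) and by 0.32 at 24 h (0.17 to 0.48, adjusted p = 0.00215). PMAIP1 was therefore higher than vehicle with both the antiandrogen and the androgen, and its levels at 4 h differed by -0.11 (DHT minus enzalutamide, -0.25 to 0.03, adjusted p = 0.285). At 24 h the DHT level was lower by 0.33 on the log2 scale (adjusted p = 0.000844). The effects against vehicle share the same vehicle libraries, for which no time was given, and an offset of these libraries was not tested.

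BBC3, the BH3-only gene for PUMA (chr19:47220822-47232766, minus strand), separated the ligands. It lay at 4.76 and 5.43 CPM in vehicle, at 6.70 and 6.22 after 4 h and 6.76 and 6.25 after 24 h of enzalutamide, and at 4.11 and 3.59 after 4 h and 4.10 and 4.00 after 24 h of DHT. The enzalutamide libraries were all above the vehicle libraries and the DHT libraries all below them. Against vehicle, BBC3 rose at 24 h of enzalutamide (log2 fold change 0.36, 0.13 to 0.60, adjusted p = 0.0219) and fell at 24 h of DHT (-0.32, -0.57 to -0.07, adjusted p = 0.035). At 4 h the differences were 0.35 (adjusted p = 0.0531) and -0.40 (adjusted p = 0.061), neither called, although both were without a filter on low counts (0.0303 and 0.0251) or with the 4 vehicle columns as samples (0.0175 and 0.0383). Between the ligands BBC3 was lower with DHT by 0.75 at 4 h (adjusted p = 0.000466) and by 0.68 at 24 h (adjusted p = 0.000137). With 157 to 343 counts per library BBC3 was the least deeply measured member, and its 24 h calls against vehicle were lost with DESeq2 (adjusted p = 0.101 and 0.122). Leaving out vehicle replicate 1 (adjusted p = 0.187), or enzalutamide replicate 1 (0.154) or 2 (0.0534), also ended the enzalutamide call, and leaving out vehicle replicate 2 (0.177), or DHT replicate 1 (0.0937) or 2 (0.105), the DHT call.

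BMF, a BH3-only protein linked to the cytoskeleton and to loss of adhesion (chr15:40087890-40108892, minus strand), responded to DHT. It measured 21.2 and 21.7 CPM in vehicle, 21.7 and 20.5 after 4 h and 21.6 and 21.3 after 24 h of enzalutamide, but 15.7 and 16.0 after 4 h and 11.0 and 12.1 after 24 h of DHT. The 4 DHT libraries lay below the other 6, and those at 24 h below those at 4 h. BMF fell with DHT by 0.44 on the log2 scale at 4 h (adjusted p = 0.00039) and by 0.89 at 24 h (-1.03 to -0.75, adjusted p = 1.12e-07). With enzalutamide its log2 change was -0.02 at 4 h (-0.15 to 0.11) and 0.00 at 24 h (-0.13 to 0.13). BIK, another BH3-only gene (chr22:43110748-43129712, plus strand), lay at 6.26 and 7.54 CPM in vehicle and at 5.18 and 4.77 after 24 h of DHT, and fell by 0.46 (adjusted p = 0.00478). Its other ligand conditions lay between 5.35 and 6.43 CPM and were not called. BCL2L11, which encodes BIM, an activator of the effectors (chr2:111119378-111168447, plus strand), lay between 39.0 and 44.3 CPM in all 10 libraries and was called in no comparison with vehicle, except at 24 h of DHT when only library size was used for scaling (-0.17, adjusted p = 0.0136) or the 4 vehicle columns were samples (-0.13, 0.0254).

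Of the 3 anti-apoptotic members, 2 were called lower at 24 h of enzalutamide, 2 at 4 h of DHT and 1 at 24 h of DHT. Over all genes, 33.4%, 6.77% and 50% were called in these conditions, in either direction. None of the 3 was called at 4 h of enzalutamide. MCL1 (chr1:150574551-150579738, minus strand), whose protein is short-lived and a partner of NOXA, lay at 436 and 411 CPM in vehicle, 396 and 400 after 4 h and 395 and 389 after 24 h of enzalutamide, and 391 and 384 after 4 h and 343 and 327 after 24 h of DHT. Every treated library was below both vehicle libraries, which all these comparisons share. MCL1 fell with DHT by 0.34 at 24 h (-0.42 to -0.26, adjusted p = 4.95e-06) and by 0.13 at 4 h (adjusted p = 0.0495), and with enzalutamide by 0.11 at 24 h (adjusted p = 0.031). The DHT call at 24 h was kept without any single library, while the enzalutamide call was lost without vehicle replicate 1 (adjusted p = 0.187), enzalutamide replicate 1 (0.073) or replicate 2 (0.141), and the DHT call at 4 h without vehicle replicate 1 (0.294), DHT replicate 1 (0.226) or replicate 2 (0.355).

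BCL2L1 (chr20:31664452-31723989, minus strand) lay between 92.8 and 111 CPM in every ligand library. It fell by 0.11 after 24 h of enzalutamide (adjusted p = 0.0434), a call lost without vehicle replicate 2 (0.179), enzalutamide replicate 1 (0.0673) or replicate 2 (0.211). BCL2, the family's founding member (chr18:63123346-63320128, minus strand), lay at 7.73 and 7.59 CPM in vehicle and 6.01 and 6.06 after 4 h of DHT, a fall of 0.34 (adjusted p = 0.0312) that was not called with DESeq2 (0.154) or without any of its 4 libraries in turn (adjusted p 0.105 without vehicle replicate 2, 0.140 without vehicle replicate 1, 0.172 without DHT replicate 2 and 0.192 without DHT replicate 1). At 24 h of DHT, BCL2 lay at 7.28 and 6.68 CPM and was not called.

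Neither effector was called against vehicle. BAX (chr19:48954815-48961798, plus strand) lay between 21.4 and 24.1 CPM in all 10 ligand libraries and was called in none of the 8 ligand comparisons by edgeR, with none at an unadjusted p below 0.05. BAK1 (chr6:33572547-33580293, minus strand) lay between 20.5 and 25.7 CPM. It was higher with DHT than with enzalutamide at 24 h by 0.21 (adjusted p = 0.00868), with 25.7 and 23.7 against 21.1 and 21.7 CPM, a call lost without DHT replicate 1 (0.0941).

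**Figure D1:**
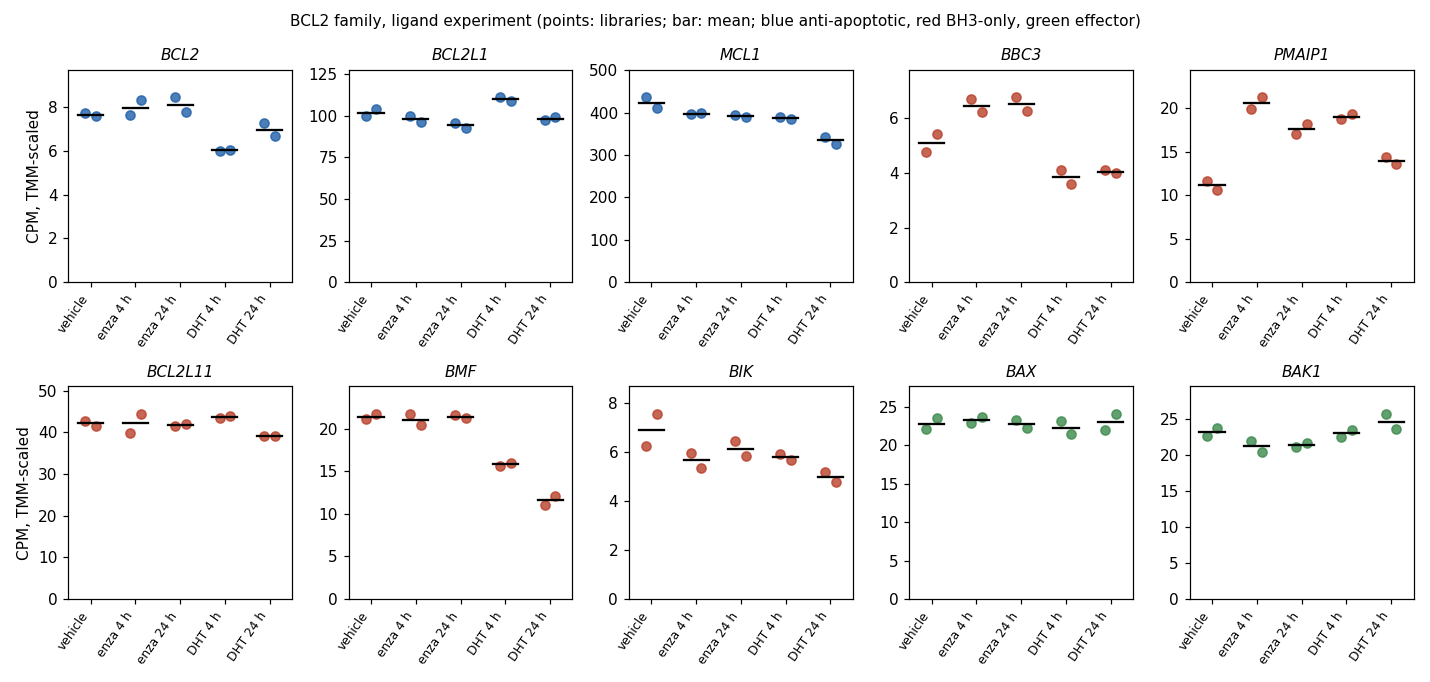
Level of each member in CPM (vertical axis, from 0) in the 10 ligand libraries, by condition; points are libraries and bars are means of 2 libraries. PMAIP1 lies above vehicle in all 8 treated libraries, and BMF falls from 21.4 CPM in vehicle to 11.6 after 24 h of DHT.

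Counted over the members, enzalutamide changed 1 of 10 at 4 h, where 13.6% of all tested genes were called, and 4 of 10 at 24 h, where 33.4% were called. DHT changed 4 of 10 at 4 h, against 6.77% of all genes, and 5 of 10 at 24 h, against 50%. The count at 24 h of DHT equals the background share, and that at 24 h of enzalutamide lies near it. The median log2 change over the members was -0.12 at 24 h of DHT and -0.01 at 24 h of enzalutamide, with 0.00 and 0.01 over all genes tested.

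**Figure D2:**
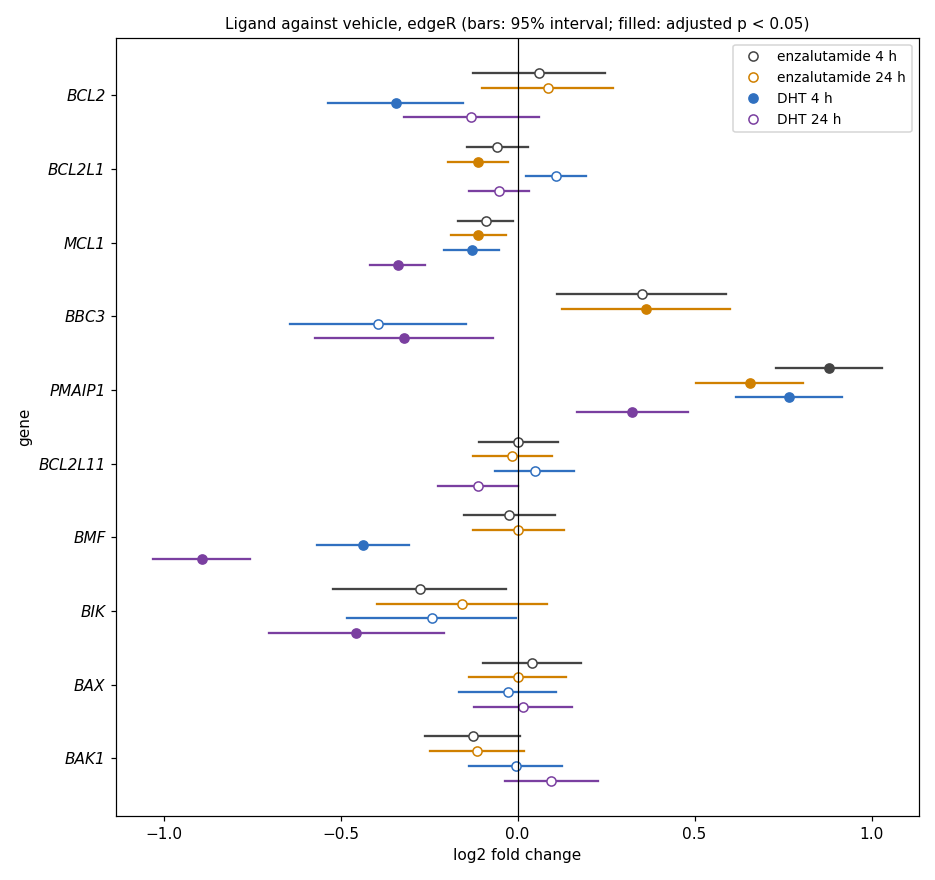
Log2 fold change against vehicle (horizontal axis) with its 95% interval for each member and ligand condition, from edgeR; filled points have an adjusted p below 0.05. PMAIP1 lies right of 0 in all 4 conditions, BBC3 right of 0 with enzalutamide and left with DHT, and BMF left of 0 with DHT.

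Compared directly at the same time, 4 of 10 members differed between DHT and enzalutamide at 4 h (15.8% of all genes) and 7 of 10 at 24 h (64.9% of all genes). Beside BBC3, lower with DHT at 4 h were BMF by 0.41 (adjusted p = 0.000382) and BCL2 by 0.41 (0.00668), and BCL2L1 was higher by 0.17 (0.011). The BCL2 call was lost without enzalutamide replicate 2 (adjusted p = 0.0538) or either DHT library (0.058 without replicate 1, 0.0521 without replicate 2), and that of BCL2L1 without DHT replicate 1 (0.101). At 24 h BMF was lower by 0.89 (adjusted p = 4.33e-08) and MCL1 by 0.23 (9.87e-05). BIK, lower by 0.30 (adjusted p = 0.0356), and BCL2, lower by 0.22 (0.0437), were not called with DESeq2 (0.133 and 0.226). Without the enzalutamide or DHT library of replicate 1 the BIK p was 0.218 and 0.0595, and without DHT replicate 2 it was 0.165. The BCL2 call was lost without any of the 4 libraries compared (adjusted p 0.284 and 0.0563 without enzalutamide replicate 1 and 2, 0.0516 and 0.237 without DHT replicate 1 and 2).

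Between 4 h and 24 h of enzalutamide, 1 of 10 members differed (24.6% of all genes), PMAIP1, lower at 24 h by 0.22 (adjusted p = 0.0247). Between 4 h and 24 h of DHT, 5 of 10 differed (49.8% of all genes), all lower at 24 h (23.5% of all genes): BMF by 0.46, PMAIP1 by 0.44, MCL1 by 0.21, BCL2L1 by 0.16 and BCL2L11 by 0.16. The PMAIP1 call between the enzalutamide times was lost with DESeq2 (adjusted p = 0.0552) and without enzalutamide 4 h replicate 2 (0.127) or 24 h replicate 1 (0.173). The BCL2L11 call was lost without any of its 4 libraries (adjusted p 0.0714 and 0.0976 without DHT 4 h replicate 1 and 2, 0.0746 and 0.0651 without DHT 24 h replicate 1 and 2).

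The deposited column headers placed the ligand libraries in 3 sets, each with a column of vehicle replicate 1. Both DHT libraries at 4 h lay in the first set, both enzalutamide libraries at 4 h in the second and both at 24 h in the third, and the DHT libraries at 24 h were split between the second and the third. The ligands at 4 h, the enzalutamide times and the DHT times were thus compared across sets. The vehicle columns link all 3 sets, and the DHT libraries at 24 h also link the second and the third. Taken within its own set, PMAIP1 was higher than in that vehicle column in all 8 treated libraries. With enzalutamide it was higher by 0.88 and 0.98 on the log2 scale at 4 h and by 0.48 and 0.58 at 24 h. With DHT it was higher by 0.66 and 0.71 at 4 h and by 0.41 and 0.16 at 24 h. BMF was lower in all 4 DHT libraries by 0.37 to 0.95, and MCL1 was lower in all 8 treated libraries. BBC3 was higher in the 4 enzalutamide libraries, by 0.27 to 0.53, and lower in the 4 DHT libraries, by 0.12 to 0.37. BCL2 after 24 h of DHT differed between sets, at 0.11 and -0.33. A further fit in edgeR, chosen after seeing the data, took the set as a term and the 4 vehicle columns as samples. Of these columns 3 carry replicate 1, so the fit may count repeat runs as replicates and understate the spread. In it PMAIP1 kept its calls against vehicle in all 4 conditions (adjusted p of at most 0.0236, at 24 h of DHT). BMF kept those with DHT and MCL1 those with DHT and with 24 h of enzalutamide, and MCL1 was also called at 4 h of enzalutamide (-0.17, adjusted p = 0.0113). Between the ligands at 4 h BBC3 (-0.80, adjusted p = 0.0283) and BMF (-0.44, 0.0129) remained called, while BCL2 (0.131) and BCL2L1 (0.188) were not. At 24 h BCL2 alone of the 7 was lost (0.172). Between the DHT times BMF, PMAIP1 and MCL1 remained called, BCL2L1 (0.0537) and BCL2L11 (0.0741) did not, and PMAIP1 was not called between the enzalutamide times (0.205). Calls against vehicle were lost for BBC3 at 24 h of enzalutamide (0.0847) and of DHT (0.118), BCL2L1 at 24 h of enzalutamide (0.116), BCL2 at 4 h of DHT (0.0636) and BIK at 24 h of DHT (0.0508).

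The siRNA experiment asked which enzalutamide responses depend on GATA2. Its values are RPKM, reads scaled to gene length and library size, so levels can also be compared between genes. In siControl vehicle cells MCL1 was the most abundant member at 65.2 ± 1.67 RPKM (SD, n = 3) and lay above 97.2% of the genes tested over the whole experiment. BCL2L1 followed at 33.8 ± 1.39, BAX at 28.8 ± 1.58, BIK at 12.2 ± 0.61, BMF at 9.75 ± 0.401 and BAK1 at 8.11 ± 0.436. BCL2L11 lay at 6.98 ± 0.113, BBC3 at 6.01 ± 0.815, PMAIP1 at 5.66 ± 0.135 and BCL2 last at 0.799 ± 0.0635. Neighbours in this order did not overlap, except BBC3 and PMAIP1. In bulk RNA of this kind, fewer cells of a type and less RNA per cell cannot be told apart.

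In siControl cells, enzalutamide raised BBC3 and PMAIP1 most. BBC3 lay at 6.07, 5.17 and 6.80 RPKM in vehicle and at 10.9, 13.9 and 13.7 with enzalutamide, a rise of 1.08 on the log2(RPKM + 0.1) scale (limma, 0.75 to 1.42, adjusted p = 0.000222). PMAIP1 lay at 5.82, 5.58 and 5.59 RPKM in vehicle and at 10.4, 11.3 and 11.4 with enzalutamide, a rise of 0.95 (0.84 to 1.06, adjusted p = 2.13e-07). In both genes every enzalutamide library exceeded every vehicle library. BMF rose from 9.75 to 11.7 RPKM, by 0.26 (adjusted p = 0.000301), and BIK fell from 12.2 to 9.91, by 0.30 (adjusted p = 0.00269). BCL2L11 fell by 0.09 (adjusted p = 0.0286), a change not called after quantile normalization (0.152), with library medians set equal (0.335) or from the 2 conditions alone (0.0508), and lost without siControl vehicle replicate 1 (0.0978) or 3 (0.059) or enzalutamide replicate 1 (0.0821) or 2 (0.0741). With these 5 of 10 members were called, against 42.1% of all 20369 genes tested (17.7% up and 24.4% down). All 5 BH3-only members were called, 3 upward and 2 downward, and none of the anti-apoptotic members or effectors was by limma, with BCL2L1 (0.08, adjusted p = 0.0732) and MCL1 (0.06, adjusted p = 0.0779) at an unadjusted p below 0.05. With library medians set equal BCL2L1 (0.14, adjusted p = 0.00968) and MCL1 (0.11, adjusted p = 0.00332) were called upward, and so they were without siControl vehicle replicate 3 for BCL2L1 (0.0331) and replicate 2 for MCL1 (0.022).

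**Figure D3:**
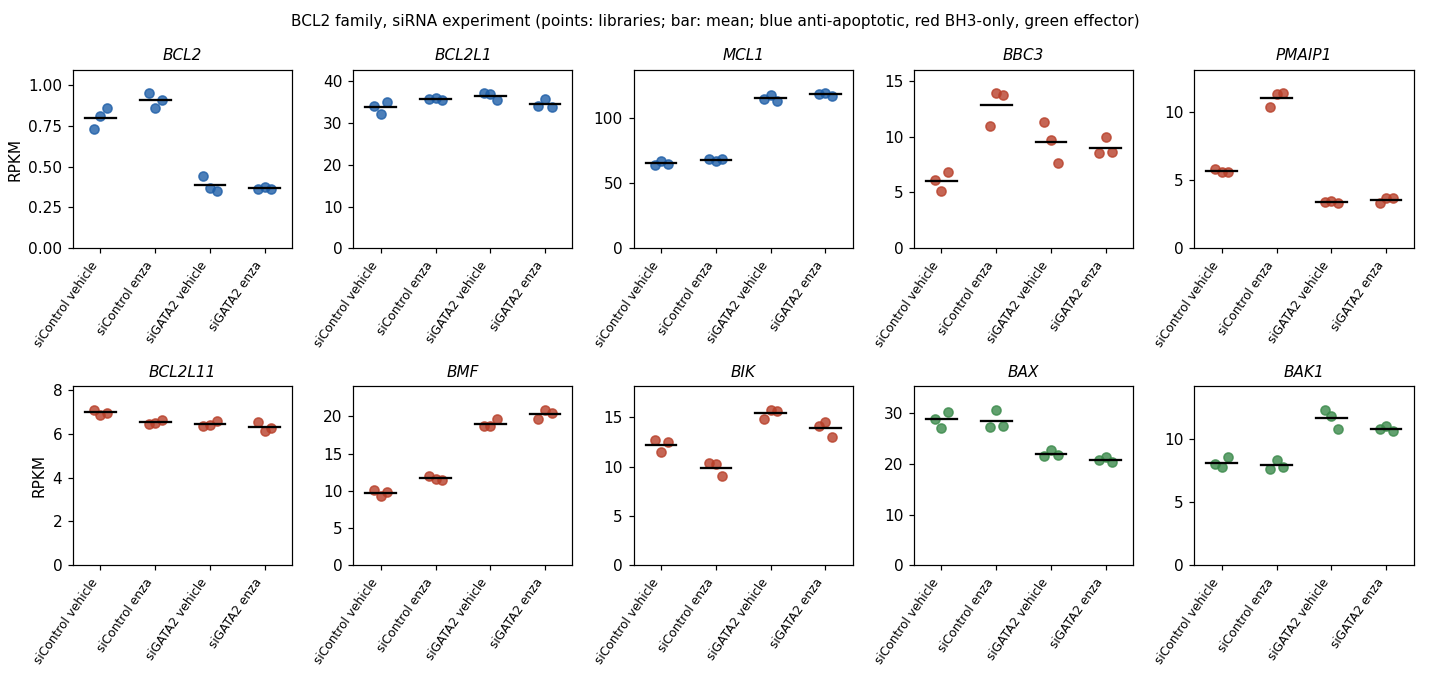
Level of each member in RPKM (vertical axis, from 0) in the 12 siRNA libraries, by condition; points are libraries and bars are means of 3 libraries. BBC3 and PMAIP1 are higher with enzalutamide in siControl cells and overlap between the siGATA2 conditions, and MCL1 and BMF are higher in all siGATA2 libraries.

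In siGATA2 cells none of the 10 members was called with enzalutamide by limma, 3 had an unadjusted p below 0.05 (BCL2L1, BIK and BMF), and 0.412% of all genes were called. PMAIP1 lay at 3.40, 3.47 and 3.28 RPKM in siGATA2 vehicle cells and at 3.35, 3.68 and 3.68 with enzalutamide, and the groups overlapped. Its log2 change was 0.07 (-0.03 to 0.18, adjusted p = 0.651). BBC3 lay at 11.3, 9.67 and 7.59 RPKM in vehicle and at 8.51, 9.93 and 8.60 with enzalutamide, again with overlap, a change of -0.06 (-0.40 to 0.27, adjusted p = 0.94). The difference between the enzalutamide effects in siGATA2 and siControl cells, tested as an interaction, was -0.87 for PMAIP1 (-1.03 to -0.72, adjusted p = 1.57e-05) and -1.15 for BBC3 (-1.62 to -0.67, adjusted p = 0.00324). Both were kept without any single library. The interaction was also called for BCL2L1 (-0.16, adjusted p = 0.0283) and BMF (-0.16, adjusted p = 0.0445), so 4 of 10 members were called, all negative, against 25.8% of all genes in either direction and 10.8% in that direction. The BCL2L1 and BMF calls were lost with the replicate number as a block (adjusted p 0.0574 and 0.0786), without a variance trend (0.0512 and 0.0675) and without sicontrol enzalutamide replicate 1 (0.0536 and 0.096) or 2 (0.0614 and 0.0748), siGATA2 vehicle replicate 1 (0.0661 and 0.0548) or 2 (0.0642 and 0.0635), or siGATA2 enzalutamide replicate 1 (0.069 and 0.105) or 3 (0.069 and 0.0745). BMF alone was also lost with a pseudocount of 1 (0.0513), without a filter (0.0536), and without siControl vehicle replicate 2 (0.0866) or 3 (0.0676) or siGATA2 vehicle replicate 3 (0.0822).

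The siGATA2 pool consists of 4 siRNAs whose listed target sequences are given here, 5′ to 3′, since all siGATA2 values rest on them. Capitals mark bases 12 to 18, the stretch that pairs with the seed (bases 2 to 8) of the guide strand.
siGATA2 1: ucgaggagcugUCAAAGUg
siGATA2 2: acuacaagcugCACAAUGu
siGATA2 3: gaagagccggcACCUGUUg
siGATA2 4: gcccaggccuaGCUACUAu
The full 19 bases of each matched transcripts of GATA2 and of no other gene (GENCODE annotation). The capital stretch of siRNA 1 occurred in transcripts of BCL2, PMAIP1, BMF and BAX and in 26.8% of the 21528 genes compared. That of siRNA 2 occurred in BCL2 (23.1% of genes), that of siRNA 3 in MCL1, BCL2L11 and BMF (27.1%) and that of siRNA 4 in no member (12.9%). The part of such matches in the changes below was not tested.

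In vehicle, siGATA2 changed all 10 members, 6 upward and 4 downward, against 55.6% of all genes (24.2% up and 31.4% down). The BH3-only members divided, with BMF, BBC3 and BIK higher and PMAIP1 and BCL2L11 lower. BMF lay at 10.1, 9.32 and 9.81 RPKM in siControl and at 18.7, 18.8 and 19.7 in siGATA2 cells (0.96, 0.88 to 1.04, adjusted p = 8.09e-09). BBC3 rose by 0.64 (0.31 to 0.98, adjusted p = 0.00391) and BIK by 0.34 (adjusted p = 0.000848), from 12.2 to 15.4 RPKM. PMAIP1 fell from 5.66 to 3.38 RPKM, by 0.73 (-0.83 to -0.62, adjusted p = 3.7e-07), and BCL2L11 by 0.11 (adjusted p = 0.00913), the latter not called after quantile normalization (0.716) or with library medians set equal (0.38). All of these groups were free of overlap. The share of all genes without overlap in this comparison was not computed, so the lack of overlap sets these members apart from no other genes.

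The anti-apoptotic members divided as well. MCL1 lay at 64.1, 67.1 and 64.3 RPKM in siControl and at 115, 117 and 112 in siGATA2 cells, a rise of 0.81 (0.76 to 0.87, adjusted p = 1.38e-09). BCL2 lay at 0.732, 0.808 and 0.858 RPKM in siControl and at 0.440, 0.372 and 0.349 in siGATA2 cells, a fall of 0.89 (-1.09 to -0.69, adjusted p = 9.04e-06). Over 8 alternative settings, other pseudocounts among them, this change ran from -1.03 to -0.38 and stayed called. Thus the most and the least abundant anti-apoptotic member moved in opposite directions. BCL2L1 rose by 0.11 (adjusted p = 0.0151), a call lost without siControl vehicle replicate 2 (0.0544) or siGATA2 vehicle replicate 1 (0.0544). The effectors moved apart too. BAX lay at 28.97, 27.20 and 30.35 RPKM in siControl and at 21.7, 22.7 and 21.8 in siGATA2 cells and fell by 0.38 (adjusted p = 6.91e-05), while BAK1 lay at 8.01, 7.73 and 8.59 and at 12.3, 11.8 and 10.8 and rose by 0.51 (adjusted p = 1.31e-05).

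Under enzalutamide, siGATA2 changed 8 of 10 members, against 54.5% of all genes. PMAIP1 differed most, at 11.0 ± 0.564 RPKM in siControl and 3.57 ± 0.189 in siGATA2 cells (SD, n = 3), a fall of 1.60 on the log2(RPKM + 0.1) scale (-1.71 to -1.49, adjusted p = 1.5e-09). BBC3, which rose with siGATA2 in vehicle, was lower with siGATA2 here, at 12.8 ± 1.66 against 9.01 ± 0.793 RPKM (-0.50, -0.84 to -0.16, adjusted p = 0.0161). That BBC3 call was lost without siControl enzalutamide replicate 2 (0.0585) or 3 (0.0549) or siGATA2 enzalutamide replicate 1 (0.0519) or 3 (0.0501). MCL1 (0.80), BMF (0.79), BIK (0.49) and BAK1 (0.45) were again higher and BCL2 (-1.11) and BAX (-0.45) again lower in siGATA2 cells, while BCL2L1 and BCL2L11 were not called. The BCL2 change ran from -1.28 to -0.48 over 8 alternative settings, other pseudocounts among them. Cell type markers moved with siGATA2 as well. In vehicle, 5 of the 9 luminal markers fell, among them KLK3 from 791 to 24.1 RPKM, and 3 rose, KRT8 from 108.7 to 194.9 RPKM, KRT18 and FOLH1. The summed luminal level lay between 1487 and 1566 RPKM in siControl and between 776 and 794 in siGATA2 vehicle cells. CD68, the leukocyte list's only marker above 1 RPKM, rose from 3.73 to 11.5 RPKM, and of the neuroendocrine markers ENO2 rose from 28.6 to 47.8 RPKM while CHGA and SYP stayed below 1. The summed stromal level lay between 37.0 and 39.1 RPKM in siControl and between 25.96 and 33.27 in siGATA2 vehicle cells, where VIM fell from 27.2 to 15.5 and COL1A1 rose from 10.1 to 14.7. The part of these changes in the members' values was not tested.

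**Figure D4:**
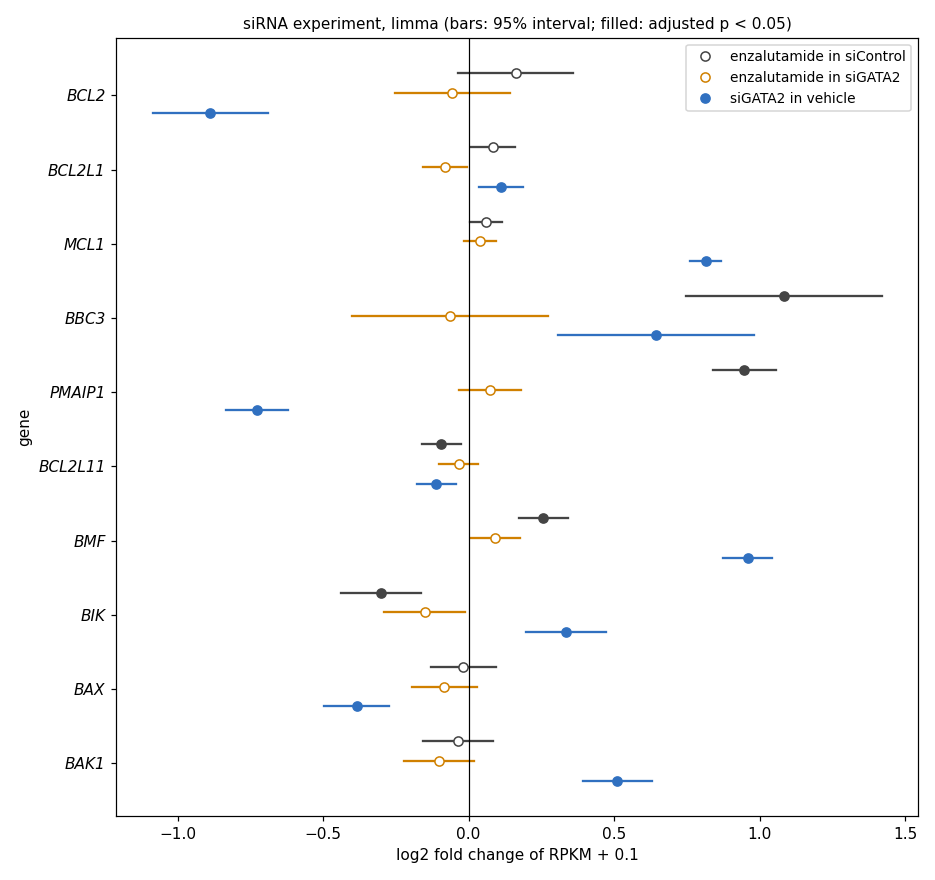
Log2 fold change of RPKM + 0.1 (horizontal axis) with its 95% interval for each member, from limma; filled points have an adjusted p below 0.05. BBC3 (1.08) and PMAIP1 (0.95) lie far right of 0 for enzalutamide in siControl cells and at -0.06 and 0.07 in siGATA2 cells.

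Summed by class, the 3 anti-apoptotic members reached 99.8 ± 0.718 RPKM in siControl vehicle, 104.6 ± 0.847 in siControl enzalutamide, 151.6 ± 3.07 in siGATA2 vehicle and 152.8 ± 2.09 in siGATA2 enzalutamide cells (SD, n = 3, no test). The sums of the 5 BH3-only members were 40.6 ± 1.86, 52.0 ± 1.72, 53.8 ± 0.888 and 53.1 ± 1.79 RPKM. BH3-only sums thus separated siControl vehicle from the other 3 conditions, and the anti-apoptotic sums separated siControl from siGATA2 cells. The ratio of the sums was 2.46 ± 0.126 in siControl vehicle, 2.01 ± 0.0831 with enzalutamide, and 2.82 ± 0.0319 and 2.88 ± 0.0584 in the siGATA2 conditions. Within the anti-apoptotic sum MCL1 made up 65.3% in siControl vehicle and 75.6% in siGATA2 vehicle cells. BMF made up 24.0% and 35.4% of the BH3-only sum in the same conditions. These are sums of RNA and not of protein. They hold only the chosen members. Other family genes were left out, among them BAD (38.5 RPKM in siControl vehicle), BCL2L2 (15.0) and BID (10.6). The sums and their ratio therefore depend on this choice, and sums with the other genes were not computed.

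**Figure D5:**
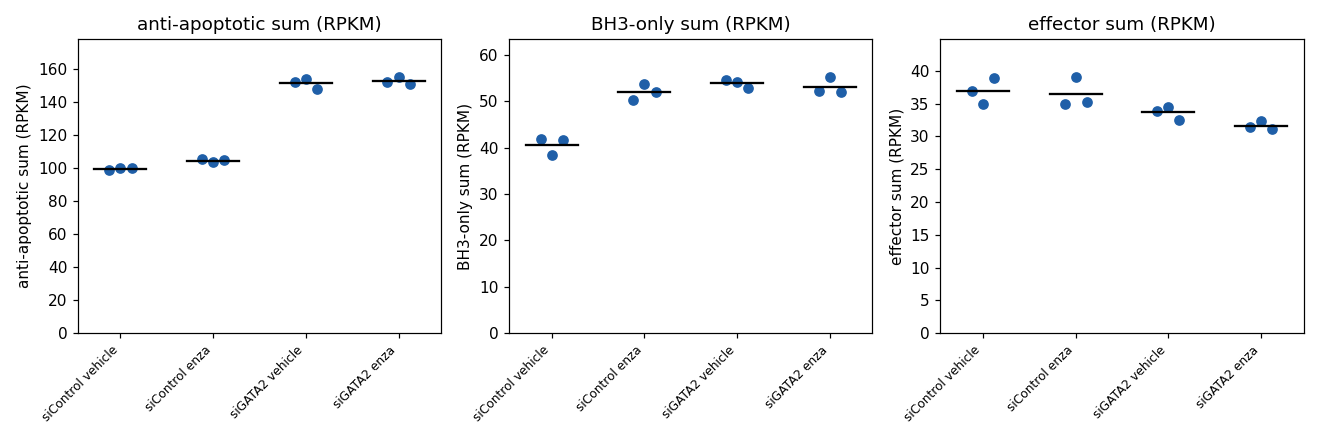
Summed RPKM (vertical axis, from 0) of the anti-apoptotic, BH3-only and effector members in the 12 siRNA libraries; points are libraries and bars are means. The anti-apoptotic sum lies between 99.0 and 105.4 RPKM in siControl and between 148.3 and 155.1 in siGATA2 cells.

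By Pearson correlation of log2 levels over the 10 ligand libraries, the genes most like BMF, the member of widest range there, were RIMS4 (r = 0.990), ADM (0.989) and NHLRC4 (0.987) of 13133 genes. Over the 12 siRNA libraries those most like PMAIP1 were SLC1A5 (r = 0.998), GPT2 (0.997) and ARHGAP35 (0.996) of 11998 genes. The libraries share conditions, so these values describe a common pattern over 5 and 4 conditions.

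Other genes of the pathway were counted on lists that were chosen with earlier results of these data known. Counts on these lists are therefore descriptive, and an excess over the shares of all genes was not tested. Of 12 listed regulators upstream of BH3-only genes, enzalutamide raised 8 and lowered 2 in siControl cells, where 17.7% of all genes were called up and 24.4% down, led by DDIT3 (2.25, adjusted p = 1.55e-08), TRIB3 (1.91, adjusted p = 6.75e-08) and E2F1 (-1.89, adjusted p = 8.38e-08). DDIT3 is a transcription factor of the stress response and E2F1 a transcription factor of the cell cycle. The paper had already listed DDIT3 and TRIB3 among the genes raised by enzalutamide in the ligand experiment. In siGATA2 cells none of the 12 was called by limma, and 6 had an unadjusted p below 0.05. For the interaction 6 were negative and 1 positive, where 25.8% of all genes were called in either direction and 10.8% as negative, led by DDIT3 (-2.06), TRIB3 (-1.89) and E2F1 (1.69). In the ligand experiment the same list counted 7 up and 3 down at 24 h of enzalutamide (33.4% of all genes called) and 1 up and 6 down at 24 h of DHT (50%), with E2F1 at -1.50 and 1.06.

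Of the other 13 members of the BCL2 family, 11 could be tested in the ligand and 12 in the siRNA experiment. BCL2L12, an atypical member, fell with 24 h of enzalutamide (-0.65) and rose with 24 h of DHT (0.50), and fell in siControl cells with enzalutamide (-0.63). In siControl cells the list gave 4 up and 4 down with enzalutamide (42.1% of all genes called), and siGATA2 in vehicle gave 5 up and 3 down (55.6%), with the mitophagy receptors BNIP3L (1.05) and BNIP3 (0.56) higher. HRK, a BH3-only gene, lay at 1.02 CPM in vehicle and 0.362 CPM after 24 h of DHT and fell by 1.43 (adjusted p = 0.000896).

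Downstream of the family, BIRC5, which encodes the inhibitor of apoptosis survivin and is tied to mitosis, changed most on the list of 14 apoptosome and caspase genes. It fell with 24 h of enzalutamide (-1.15), rose with 24 h of DHT (0.52) and fell in siControl cells with enzalutamide (-1.02). That list counted 2 up and 4 down, 6 up and 3 down, and 3 up and 5 down in these comparisons, where 33.4%, 50% and 42.1% of all genes were called. Against the same shares, the 10 death receptor genes counted 2 up and 1 down, 3 up, and 2 up and 3 down, and siGATA2 in vehicle lowered FAS (-1.60) and raised TNFRSF1A (0.62). Of the 5 genes of MCL1 turnover, siGATA2 in vehicle raised 2 and lowered 2 (55.6% of all genes called), with CDK9, a kinase that sustains transcription of short-lived RNAs, higher by 0.63 (adjusted p = 7.41e-08).

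Reads could not be assigned with certainty everywhere. Antisense transcripts overlap exons of BCL2L1 (ABALON), BMF (BMF-AS1) and BCL2L11 (MIR4435-2HG), and other genes overlap an exon of MCL1 (ADAMTSL4-AS1, same strand), BBC3 (MIR3190 and MIR3191) and BAK1 (GGNBP1, opposite strand). BAK1 has the processed pseudogenes BAK1P1 and BAK1P2, and no source states whether counting used strand, so reads of these pairs cannot be told apart.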

How the data were processed

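Poly(A) RNA of LNCaP cells was sequenced after a directional library preparation. For the ligand experiment the authors deposited estimated counts made with TopHat alignments and Partek Genomics Suite (hg19 per the submitters' notes). The estimated counts were rounded before testing. For the siRNA experiment the authors deposited RPKM values, which a count test could not take. The plan was to sum the 3 vehicle columns of replicate 1 only if they differed by no more than sampling noise. They were summed although they differed by more, with a mean chi-square per gene of 1.51 to 1.54 between pairs, against 1 for sampling noise alone. The sample titles count 4 vehicle replicates. Ligand counts were tested with edgeR 4.0.16 (quasi-likelihood, TMM, default filter, 10 libraries in 1 model) and siRNA values with limma 3.58.1 (trend, log2(RPKM + 0.1), genes above 0 in at least 3 libraries). Adjustment was Benjamini-Hochberg over all genes tested. DESeq2 1.42.0, other scalings, filters and pseudocounts, a replicate block and leaving out each library were alternatives. Tests were checked on simulated data. All members are named, and from each other list at most the 3 largest called changes per comparison. Members and lists were chosen with earlier results of these data known. GRCh38 coordinates come from GENCODE and RefSeq, not from the hg19 files.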

Additional observations from a re-analysis of the deposited data

Results flagged for a closer look

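The effect of enzalutamide differed between siGATA2 and siControl cells for 4 of 10 members, by the interaction term in limma: PMAIP1 (-0.87 on the log2 scale), BBC3 (-1.15), BCL2L1 (-0.16) and BMF (-0.16). Of all genes, 25.8% were called in either direction and 10.8% as negative. The BCL2L1 call was lost in 6 of 12 fits without a single library and the BMF call in 9. Both were also lost with the replicate block and without a variance trend. PMAIP1 and BBC3 rose in all 3 siControl enzalutamide libraries against all siControl vehicle libraries. Levels differed between 4 h and 24 h of the same ligand, by edgeR, the value being 24 h minus 4 h. With enzalutamide this held for PMAIP1 (-0.22), where 24.6% of all genes were called. With DHT it held for BMF (-0.46), PMAIP1 (-0.44), MCL1 (-0.21), BCL2L1 (-0.16) and BCL2L11 (-0.16), where 49.8% of all genes were called. The PMAIP1 call with enzalutamide and the BCL2L11 call were lost without some single libraries. The times of each ligand lay in different sets of the column headers.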

How the results depend on the processing

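Counts of members called moved by more than 1.5 times, or to 0, in 12 fits under other settings and did not in 104. Without single libraries they moved so in 16 fits and did not in 52. For enzalutamide at 4 h (1 member) the count was 2 without a filter or with a stricter filter. The count was 3 with the 4 vehicle columns as samples, of which 3 carry replicate 1. For enzalutamide at 24 h against 4 h (1 member) it was 0 with DESeq2. With the set as a term and 4 vehicle columns (chosen after seeing the data) the counts were 2 for enzalutamide at 4 h, 2 at 24 h (4 members), 3 for DHT at 24 h (5 members), 2 for DHT against enzalutamide at 4 h (4 members), 0 between the enzalutamide times and 3 between the DHT times (5 members); over all genes, 1224 were called for enzalutamide at 4 h, 1060 between the ligands at 4 h and 1628 between the enzalutamide times. For the interaction (4 members) it was 2 without a variance trend and 2 with the replicate block. Leaving out each library gave 1 to 3 members for enzalutamide at 24 h, 2 to 3 for DHT at 4 h, 0 to 1 between the enzalutamide times, 2 to 4 for DHT against enzalutamide at 4 h, 4 to 6 at 24 h and 2 to 4 for the interaction. Where fewer libraries enter, fewer remain to estimate the spread; otherwise the cause was not tested. The replicate block also ended the calls of BCL2L1 for enzalutamide at 24 h (adjusted p = 0.0636), MCL1 for DHT at 4 h (0.0523) and BCL2 between the ligands at 24 h (0.0544), and no other call of a member. With RLE scaling MCL1 for DHT at 4 h (0.0605), and BCL2 (0.0696) and BIK (0.05003) between the ligands at 24 h, were not called, nor with library size alone BCL2L1 for enzalutamide at 24 h (0.0525). BCL2L1 was called for DHT with library size alone at 24 h (0.0365) and with 4 vehicle columns at 4 h (0.0257), and after quantile normalization in siControl cells with enzalutamide (0.00471) and for siGATA2 under enzalutamide (0.0447). MCL1 was called for enzalutamide at 4 h with 4 vehicle columns (0.0125). No member difference whose 95% interval excluded 0 changed sign, while some others near 0 did. Over all genes, enzalutamide at 4 h gave 2119 calls and 781 from the 2 conditions alone, DHT against enzalutamide at 4 h 2453 and 1578, and enzalutamide in siGATA2 cells 84, 24 from the 2 conditions alone and 29 with the replicate block; without single libraries, enzalutamide gave 1058 to 3113 at 4 h and 3098 to 4023 (5194) at 24 h, DHT at 4 h 570 to 732 (1053), DHT against enzalutamide at 4 h 1256 to 2570, the enzalutamide times 2139 to 3935 (3829) and siGATA2 cells 27 to 75. Setting library medians equal moved the upward share of calls in siControl cells from 42.1% to 54.6%, in siGATA2 cells from 53.6% to 65%, for siGATA2 in vehicle from 43.5% to 54.2% and for the interaction from 58.0% to 47.4%; library size alone moved it for DHT at 24 h from 53.7% to 42.1%. Among the 11999 genes of at least 1 RPKM, the 3 same-numbered pairs of siControl and siGATA2 enzalutamide libraries correlated at 0.113 to 0.241 in their deviations, and at 0.0143 to 0.0647 over all genes tested; in every other siRNA comparison at least 1 same-numbered pair lay below 0.1. The replicate block changed no call of a member between those conditions. No label ties the numbers to a shared culture or day.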
